A study of Mus musculus with 123 samples.

Results

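Expression of 7 cytokine genes was followed in the lungs of BALB/c mice: the interleukin-6 family members Il6, Osm and Lif, the interleukin-1 genes Il1a and Il1b with their natural inhibitor Il1rn, and Tnf. They were chosen by name and with earlier results of these data known, so counts of them are a description and no independent test. They are 7 of the 13053 genes that the array platform's annotation pairs with a symbol of their own. A gene with several probe sets was read from the one of highest average signal. The study is a mouse model of asthma in which ovalbumin (OVA), the egg-white protein, is the antigen. Whole lung of 61 mice labelled naive and of 62 OVA-sensitized mice was profiled, 1 array per animal, at 8 times from 0 to 168 h. The naive groups held 8 mice, except for 7 at 2, 48 and 96 h, and the sensitized groups held 8 mice, except for 6 at 24 h. The series text has both arms challenged with OVA, whereas the naive samples' titles carry the letters PBS, so what the naive mice received is not settled here. Nor do the labels say whether the 0 h mice were taken before or just after the challenge. No genetic change is described in either arm, and every group is a different set of animals.

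Interleukin-6, oncostatin M (Osm) and leukemia inhibitory factor (Lif) all signal through the shared receptor chain gp130 (Il6st), which activates the transcription factor STAT3. Interleukin-1 alpha and beta act through the receptor Il1r1 with its partner Il1rap, and tumour necrosis factor (Tnf) through Tnfrsf1a and Tnfrsf1b. Both routes lead to the transcription factor NF-kB, which in turn drives many cytokine genes, Il6 among them. Il1rn encodes a protein that occupies Il1r1 without signalling, and interleukin-1 beta is made as an inactive precursor that caspase-1 cuts. In the lung, macrophages, mast cells, epithelium and fibroblasts are among the known sources of these cytokines, and all of them are known to be made during airway inflammation.

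The values are log2 array signals, on which a difference of 1 is a doubling. They were tested with limma, p-values were adjusted by the Benjamini-Hochberg method over all 13053 genes within each comparison, and a gene was called where the adjusted p was below 0.05. The spread of a gene was estimated once over all 16 groups, although it differed between them. In sensitized mice the SD of Il6 was 2.56 at 2 h and 0.31 at 48 h. The shared SE is thus too small where groups vary widely and too large where they vary little. The median value of an array lay between 9.32 and 9.44. The 8 lung epithelium markers averaged between 13.76 and 14.05 in every array, which fits the labelled tissue. In 7 arrays the markers of squamous epithelium, a lining that lung itself lacks, averaged 8.45 to 11.75, against 6.46 to 7.23 in the other 116. Those arrays are naive replicates 1 and 3 at 0 h, 1 and 8 at 6 h and 8 at 24 h, and sensitized replicate 7 at 6 h and 8 at 48 h. Replicate numbers here follow the accession order and only name a mouse.

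Where the 7 genes lie and what precedes their starts is shown first, as a description. Whether promoter letters had a part in the size of any change was not tested. The windows of Il6, Il1b and Tnf are written out below. Il1a and Il1b are neighbouring coding genes on chromosome 2, which also carries Il1rn. Osm and Lif are neighbours on chromosome 11, Tnf lies between its relatives Ltb and Lta on chromosome 17, and Il6 lies on chromosome 5. RefSeq promoter windows of the build GRCm38.p6 matched 6 of the 7 genes by symbol, all except Osm. The last 250 bases before the start of transcription were searched on both strands for GGNNTTTCC (letters bound by NF-kB), TGANTCA (AP-1) and TTGCNNAA (C/EBP). The sequences are written 5′ to 3′ in the direction of the gene, with any match to these 3 motifs in capitals.

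Il6, chr5:30012864-30013113, plus strand: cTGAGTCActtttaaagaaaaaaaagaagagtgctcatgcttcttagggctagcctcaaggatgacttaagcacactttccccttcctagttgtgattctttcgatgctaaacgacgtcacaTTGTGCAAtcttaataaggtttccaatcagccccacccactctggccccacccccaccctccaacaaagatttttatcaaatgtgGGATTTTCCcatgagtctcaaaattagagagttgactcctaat
Il1b, chr2:129371140-129371389, minus strand: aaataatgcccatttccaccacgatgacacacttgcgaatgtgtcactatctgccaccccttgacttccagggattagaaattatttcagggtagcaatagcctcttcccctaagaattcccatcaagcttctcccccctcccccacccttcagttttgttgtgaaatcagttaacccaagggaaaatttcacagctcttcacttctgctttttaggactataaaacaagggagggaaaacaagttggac
Tnf, chr17:35202008-35202257, minus strand: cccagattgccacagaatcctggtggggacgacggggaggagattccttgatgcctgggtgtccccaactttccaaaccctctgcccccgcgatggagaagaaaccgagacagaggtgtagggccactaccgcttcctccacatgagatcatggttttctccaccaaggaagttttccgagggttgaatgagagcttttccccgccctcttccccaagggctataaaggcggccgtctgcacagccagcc

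The Il6 window held 1 match of each motif: TGAGTCA from 249 to 243 bases before the start, TTGTGCAA from 128 to 121 and GGATTTTCC from 43 to 35. No match to these letters was in the Il1b or Tnf window. Of all 32851 promoter windows of this length, 4.93% held the NF-kB letters, 6.75% the AP-1 letters and 9.56% the C/EBP letters, and 14 windows held all 3. An AP-1 match also lay in the windows of Il1a, at 12 to 6 bases before the start, and Lif, at 228 to 222. Of the 3 Il1rn windows, 1 held an NF-kB match and another an AP-1 match. A looser NF-kB motif, which overlaps the one above, was in 45.8% of all windows, including those of Il6, Tnf and Lif and 2 of the 3 of Il1rn, and TGACGTCA (CRE) and TTCNNNGAA (STAT) were in no window of the 6 genes. A match is a run of letters and not a shown binding site.

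Every one of the 7 genes had its highest sensitized mean at 6 h. At that time all 7 were higher in sensitized than in naive lung, beside 24.6% of all genes. With the spread of the 6 h mice alone limma still called all 7, with adjusted p from 0.000931 (Il6) to 0.0181 (Il1b). The median difference of the 7 was 1.28, against -0.04 over all genes. At 2 h 5 of the 7 were higher (1.84% of all genes), at 24 h 3 (22.8%), at 48 h 1 (17.0%) and at 72 h 2 (22.2%). None of the 7 was lower at 0, 2, 6, 24, 48 or 72 h by limma, even at an unadjusted p below 0.05, where 12.3%, 1.92%, 33.2%, 24.9%, 18.1% and 26.3% of all genes were called lower. At 96 h none was higher (21.2%) and Il1b alone was lower (20.8% of all genes were lower). At 168 h limma called none of the 7 in either direction, and none had an unadjusted p below 0.05, beside 3.40% of genes higher and 1.41% lower. At 0 h only Lif was called higher (14.2%). In whole lung, fewer cells of a type and less RNA per cell cannot be told apart.

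**Figure D1:**
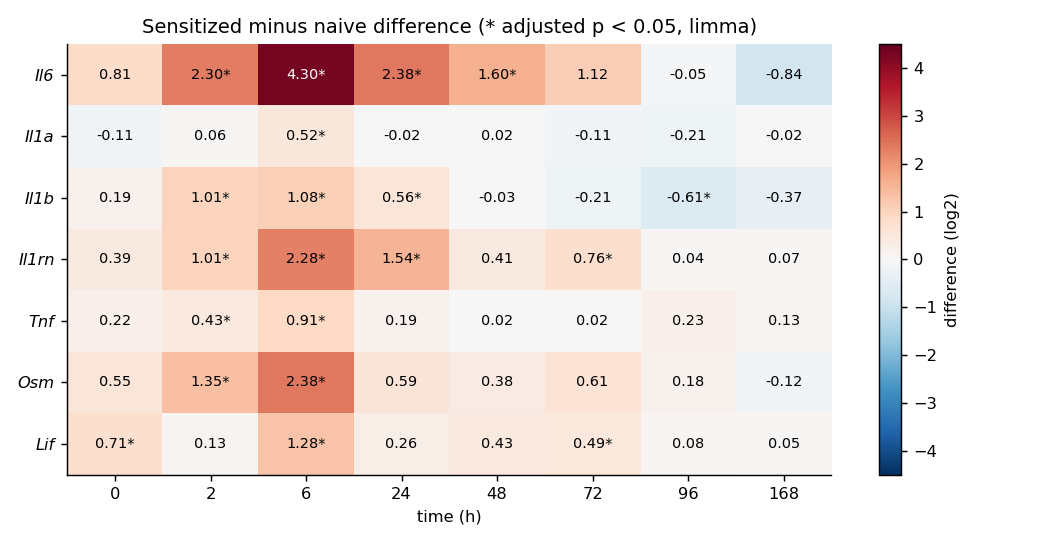
Sensitized minus naive difference of each cytokine gene (rows) at each time in hours (columns), in log2 units and as colour, with an asterisk where the limma adjusted p was below 0.05. Il6 has the largest difference, 4.30 at 6 h, and the 6 h column is the only one in which all 7 genes are called.

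The moderated F test asked whether the difference between the arms itself varied over the times. It was called for all 7 genes, beside 62.5% of all genes. Within sensitized mice all 7 changed over time (87.8% of all genes), and within naive mice only Il1b did, with an adjusted p of 0.0379 (38.4%). From 2 to 6 h, 6 of the 7 rose in sensitized lung, all except Il1b (22.1% of all genes rose), and from 6 to 24 h the same 6 fell (12.9% fell). From 0 to 2 h only Il1b and Tnf rose (14.2%), by 0.61 and 0.41. From 24 to 48 h only Il1rn fell, by 1.04 (12.3%). At later steps limma called none of the 7 (40.5% of all genes were called in at least 1 of them), and Il1a and Il1rn had an unadjusted p below 0.05 from 72 to 96 h. The 168 h level differed from the 0 h level for none of the 7 by limma, although Lif was lower at an unadjusted p below 0.05 (6.13% of all genes were called). In naive mice limma called no step of any of the 7, against 13.5% of all genes called in at least 1 step. Lif, Il1a and Tnf had unadjusted p below 0.05 at 1 or more naive steps.

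Il6 is the founding cytokine of the gp130 family and an inducer of acute-phase proteins. In naive lung at 6 h it ranged from 4.45 to 6.53 with a median of 5.63. In sensitized lung at 6 h it ranged from 5.29 to 11.19 with a median of 10.56. Here 7 of 8 sensitized mice lay above every naive mouse, and 1 lay within the naive range. The means were 9.90 ± 1.94 (SD, n = 8) and 5.61 ± 0.68 (SD, n = 8), a difference of 4.30 ± 0.56 (SE), or 19.6-fold, with an adjusted p of 1.44e-10. With the 6 h mice alone the adjusted p was 0.000931. Averaged over all arrays, Il6 had a mean of 6.56, and only 2.0% of the platform's probe sets were lower, so in naive lung its signal was near the bottom of the array's range. The data carry no detection calls, so the fold is one of array signals and no measured ratio of transcripts.

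The earlier time divided the sensitized mice. At 2 h the 8 sensitized values of Il6 were 10.18, 4.98, 9.35, 9.22, 9.78, 5.19, 4.57 and 10.44, in replicate order. The 7 naive mice ranged from 4.92 to 6.85. Thus 5 sensitized mice lay far above all naive mice, 2 within the naive range and 1 below it. The difference of means was 2.30 ± 0.58 (SE; adjusted p = 0.0112). With the spread estimated from these 15 mice alone the adjusted p was 0.192, and without sensitized replicate 8 the gene was no longer called.

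At 24 h the 6 sensitized mice had Il6 values of 6.92, 8.10, 8.07, 7.96, 8.84 and 8.38, and the naive mice ranged from 4.44 to 6.92. Every sensitized mouse lay above every naive mouse, if barely for the lowest one, as for 13% of all genes. The difference was 2.38 ± 0.60 (SE; adjusted p = 0.000577). At 48 h the arms again did not overlap, as for 5.98% of all genes: sensitized mice ranged from 6.43 to 7.32 and naive mice from 4.96 to 5.94. The difference was 1.60 ± 0.58 (SE; adjusted p = 0.0234, and 1.61e-06 with the 48 h mice alone). At 72 h it was 1.12 ± 0.56 (SE), with 5 of 8 mice above every naive mouse, and missed the threshold (adjusted p = 0.0874). It was called with the 72 h mice alone (adjusted p = 0.00126), with array weights (adjusted p = 0.0195) and without the arrays holding squamous or muscle transcripts (adjusted p = 0.0448). The differences of -0.05 at 96 h and -0.84 at 168 h were not called. In the order of sensitized means, 6 h led at 9.90, followed by 24 h at 8.05, 2 h at 7.96, 48 h at 6.95, 0 h at 6.72, 72 h at 6.71, 96 h at 6.14 and 168 h at 5.92. Of the neighbours in that order, only 72 and 96 h were further apart than the larger of their SDs.

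**Figure D2:**
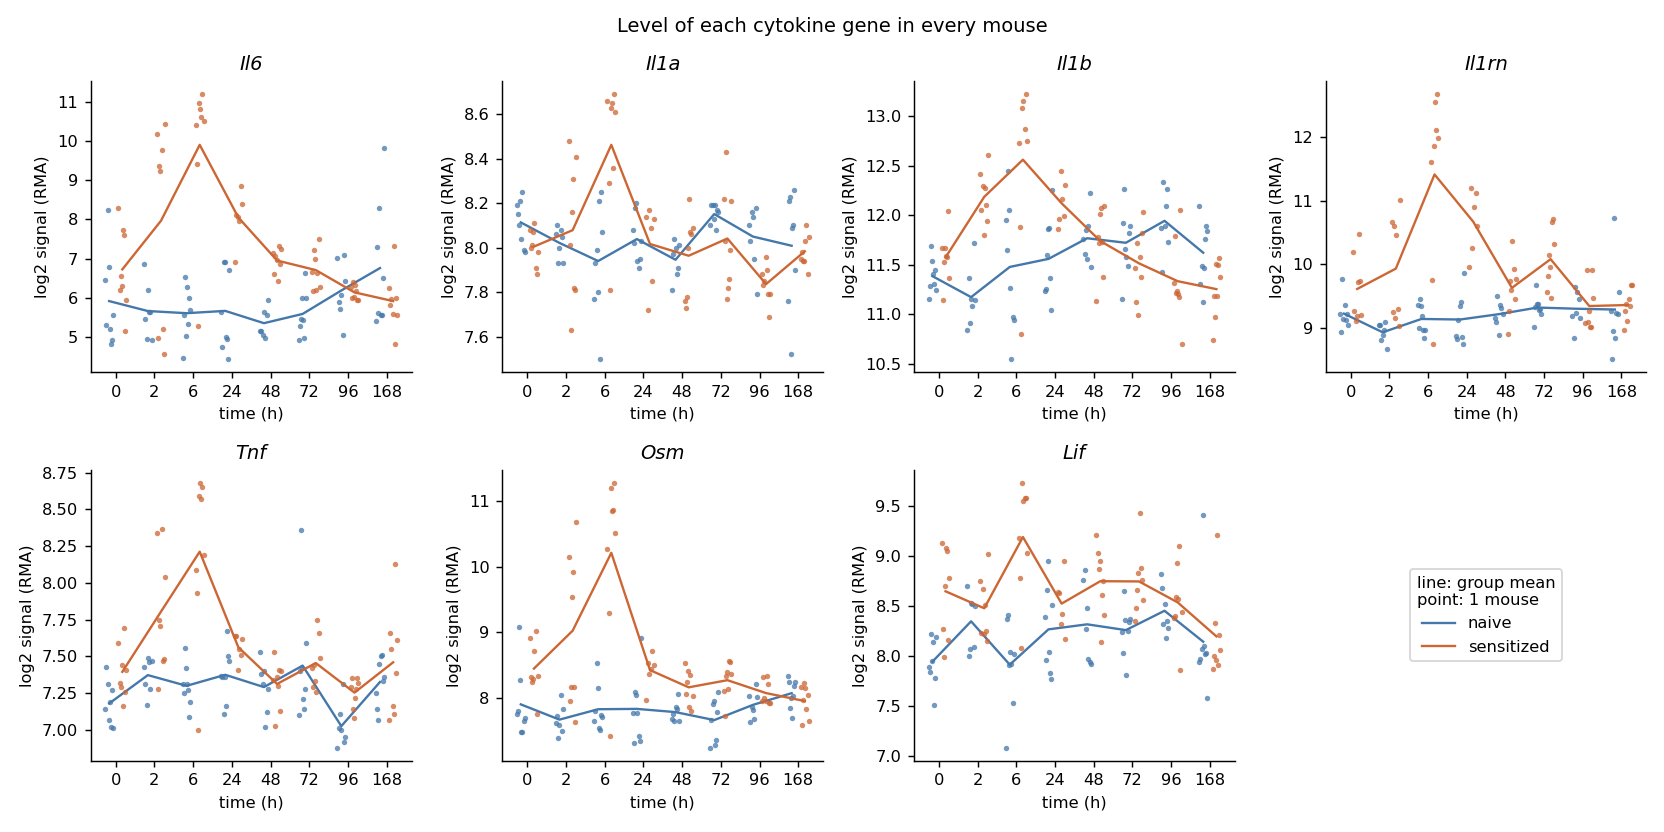
Level of each of the 7 genes (log2 signal) in naive and sensitized mice against time in hours, with 1 point per mouse and lines joining the group means. The sensitized mean is highest at 6 h in every panel, where 1 sensitized mouse stays low in all 7. At 96 h the sensitized mean of Il1b lies below the naive mean, by -0.61.

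Oncostatin M, a product of myeloid and T cells that acts on fibroblasts, endothelium and epithelium, had the pattern nearest to that of Il6 among the other 6 genes. Its 6 h values ranged from 7.43 to 11.27 in sensitized mice with a median of 10.67, and from 7.52 to 8.54 in naive mice with a median of 7.73. Again 7 sensitized mice were above every naive mouse, and 1 was below them all. The difference was 2.38 ± 0.27 (SE), or 5.19-fold (adjusted p = 6.91e-13). At 2 h Osm ranged from 7.64 to 10.68 in sensitized mice and from 7.39 to 8.05 in naive mice, and 6 of 8 exceeded the naive range. That difference was 1.35 ± 0.27 (SE; adjusted p = 0.00108, and 0.0953 with the 2 h mice alone). From 6 to 24 h Osm fell by 1.78. The later differences, 0.59 at 24 h (adjusted p = 0.0795) and 0.61 at 72 h (adjusted p = 0.05), were not called, nor was 0.38 at 48 h (adjusted p = 0.287). With the mice of 1 time alone all 3 were called, with adjusted p of 0.0322 at 24 h, 0.0128 at 48 h and 0.00172 at 72 h. Without the 7 arrays holding squamous epithelium transcripts, Osm was called at 0 h (0.72, adjusted p = 0.0455), at 24 h (0.75, adjusted p = 0.0231) and at 72 h (0.61, adjusted p = 0.0401). Leaving out naive replicate 3 at 0 h, or naive replicate 8 at 24 h, was enough for a call, as was naive replicate 3, 4 or 8 or sensitized replicate 2 at 72 h.

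Lif, a gp130 cytokine best known for its actions on stem cells and neurons, was the only one of the 7 called higher at 0 h, although the uncalled difference of Il6 was larger (0.81 ± 0.56, SE; adjusted p = 0.278). It ranged there from 7.99 to 9.13 with a median of 8.74, against 7.51 to 8.22 with a median of 7.92 in naive mice. The arms overlapped, although 6 of 8 sensitized mice exceeded the naive range. The difference was 0.71 ± 0.19 (SE; adjusted p = 0.0037). At 2 h it was 0.13 and not called. At 6 h Lif ranged from 8.08 to 9.73 in sensitized and from 7.08 to 8.41 in naive mice, with all but 1 above the highest naive mouse. The difference was then 1.28 ± 0.19 (SE; adjusted p = 9.83e-09). A smaller difference at 72 h, 0.49 ± 0.19 (SE; adjusted p = 0.0276), had 5 of 8 mice above every naive mouse. That call was lost without naive replicate 2, naive replicate 5 or sensitized replicate 5.

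The array signals of Osm and Lif, neighbours in the genome, did not change equally. The per-mouse difference of Osm and Lif was larger in sensitized than in naive mice by 1.22 at 2 h (adjusted p = 0.00918) and by 1.09 at 6 h (adjusted p = 0.0121). These are exact permutation tests, two-sided, adjusted over 32 tests of 4 pairs of genes at 8 times. At none of the other 6 times did this pair pass the threshold.

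Il1b encodes interleukin-1 beta, an early cytokine of macrophages, monocytes and neutrophils. At 2 h its values ran from 11.80 to 12.61 in sensitized mice with a median of 12.18, and from 10.84 to 11.72 in naive mice with a median of 11.14. Every sensitized mouse was above every naive mouse, as for 0.429% of all genes, and Il1b was the only one of the 7 for which this held at 2 h. The difference was 1.01 ± 0.20 (SE), or 2.02-fold (adjusted p = 0.000993). It was the only one of the 5 calls at 2 h that also passed with the 2 h mice alone (adjusted p = 0.00498). At 6 h the difference was 1.08 ± 0.20 (SE; adjusted p = 1.50e-06), with sensitized mice from 10.80 to 13.22 and naive mice from 10.55 to 12.45. With the 6 h mice alone the SE was 0.35 and the adjusted p 0.0181. The naive range was wide at that time, and 6 of 8 sensitized mice exceeded it. At 24 h a difference of 0.56 ± 0.21 (SE) was called (adjusted p = 0.0224) although only 2 of 6 sensitized mice exceeded the naive range of 11.04 to 12.25. It was lost without naive replicate 7 or sensitized replicate 3.

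At 96 h the direction of Il1b was the opposite. Sensitized mice ranged from 10.70 to 12.05 with a median of 11.22, and naive mice from 11.43 to 12.33 with a median of 11.89. There 6 of 8 sensitized mice lay below every naive mouse. The difference was -0.61 ± 0.20 (SE; adjusted p = 0.011), and no single array decided the call. In naive mice the mean of Il1b was lowest at 2 h, 11.17 ± 0.30 (SD, n = 7), and highest at 96 h, 11.94 ± 0.31 (SD, n = 7). In sensitized mice it went from 12.56 ± 0.83 (SD, n = 8) at 6 h to 11.33 ± 0.41 (SD, n = 8) at 96 h. Of the 8 measured neutrophil markers 4 were lower at 96 h, beside 20.8% of all genes. They were S100a8 by -0.60, S100a9 by -0.48, Itgb2l by -0.17 and Cxcr2, the receptor for neutrophil-attracting chemokines, by -0.75. Another, Ltf (lactoferrin), was higher by 1.78 (adjusted p = 0.00575), and the mean of the list differed by -0.09. Their part in the Il1b result was not tested.

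Il1a encodes interleukin-1 alpha, which is stored in many cells and released on damage. It was called at 6 h only. Its values there ran from 7.81 to 8.69 in sensitized mice with a median of 8.62, and from 7.50 to 8.25 in naive mice with a median of 7.96. Here 7 of 8 sensitized mice were above every naive mouse, and 1 was within the naive range. The difference, 0.52 ± 0.09 (SE), or 1.44-fold (adjusted p = 3.72e-07), was the smallest of the 7 at this time. At 96 h Il1a stood at -0.21 ± 0.09 (SE), just outside the threshold (adjusted p = 0.0543), and it was called with array weights (adjusted p = 0.0236), with the 96 h mice alone (adjusted p = 0.00912), or without naive replicate 7 or sensitized replicate 4.

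Il1rn, which encodes the interleukin-1 receptor antagonist, was called higher at 2, 6, 24 and 72 h. At 6 h it ran from 8.75 to 12.68 in sensitized mice with a median of 11.92, and from 8.84 to 9.45 in naive mice with a median of 9.09. Of the sensitized mice 7 were above every naive mouse and 1 below. The difference was 2.28 ± 0.27 (SE), or 4.84-fold (adjusted p = 7.31e-12). The gene's other probe sets gave 1.79 and 2.42 at 6 h. At 24 h the 6 sensitized mice ranged from 9.95 to 11.20, all above the naive range of 8.74 to 9.87. That difference was 1.54 ± 0.29 (SE; adjusted p = 6.34e-06).

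The earlier and later calls of Il1rn were less firm. At 2 h it was 1.01 ± 0.28 (SE; adjusted p = 0.0242), with 7 of 8 mice above every naive mouse, but 0.0771 with the 2 h mice alone. It was also lost without sensitized replicate 1, 3, 5 or 8. At 72 h the difference was 0.76 ± 0.27 (SE; adjusted p = 0.0145), with 6 of 8 mice above every naive mouse. The other probe sets gave 0.39 (adjusted p = 0.0803) and 0.72 (adjusted p = 0.0785) there, so they did not pass. Between these times, at 48 h, the difference of 0.41 was not called. The fall of Il1rn from 6 to 24 h, by 0.74 (adjusted p = 0.0417), was not called without the squamous arrays, where it was -0.56 (adjusted p = 0.15).

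The change of the antagonist could be set against that of its agonist within each mouse. The per-mouse difference of Il1rn and Il1b shifted by -0.01 between the arms at 2 h and was not called (exact permutation test, adjusted p = 0.979). It was larger in sensitized mice by 1.20 at 6 h (adjusted p = 0.00547), 0.98 at 24 h (adjusted p = 0.00373), 0.44 at 48 h (adjusted p = 0.0152), 0.97 at 72 h and 0.65 at 96 h (both adjusted p = 0.00332, exact permutation tests). At 24, 72 and 96 h every sensitized mouse was above every naive mouse in this measure. For 8 against 8 mice the smallest p the test allows is 0.000155 before adjustment, and the 72 h value reached it. At 168 h the shift of 0.44 was not called (adjusted p = 0.275). By limma Il1rn itself was not called at 48 h (0.41, adjusted p = 0.248) or at 96 h (0.04, adjusted p = 0.927). The 96 h shift thus lay in Il1b, which differed by -0.61. The per-mouse measure shows unequal change of the array signals, to which unequal response of the probe sets may add. It does not show the ratio of the proteins.

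**Figure D3:**
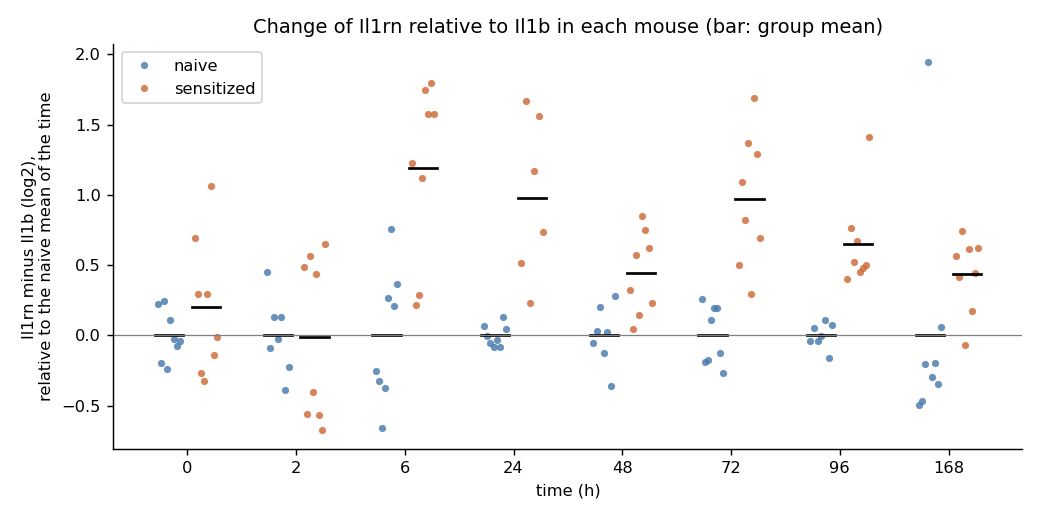
Per-mouse log2 difference of Il1rn and Il1b relative to the naive mean of the same time, against time in hours, with 1 point per mouse and bars for group means. Sensitized mice shift upward from 6 to 96 h, by 1.20 at 6 h and 0.65 at 96 h, but not at 2 h. At 96 h Il1rn itself differed by 0.04 and Il1b by -0.61.

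Tnf, the cytokine that gives the tumour necrosis factor family its name, was called at 2 and 6 h only. At 6 h it ran from 7.0 to 8.68 in sensitized mice with a median of 8.38, and from 7.09 to 7.56 in naive mice with a median of 7.29. Here too 7 sensitized mice lay above every naive mouse and 1 below. The difference was 0.91 ± 0.13 (SE), or 1.89-fold (adjusted p = 2.16e-09). At 2 h it was 0.43 ± 0.13 (SE; adjusted p = 0.0476), with 5 of 8 above every naive mouse. That call was at the edge: it was lost when any of 12 of the 15 arrays was left out, and with the 2 h mice alone (adjusted p = 0.137). From 24 to 168 h Tnf was not called, except at 96 h with the mice of that time alone (0.23, adjusted p = 0.00848).

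The array signal of Il6 changed by more than those of Tnf and Il1b. The test cannot separate unequal change of transcripts from unequal response of the probe sets. The per-mouse difference of Il6 and Tnf was larger in sensitized mice by 3.38 at 6 h and by 2.20, 1.58 and 1.10 at 24, 48 and 72 h. Against Il1b the shifts were 3.22, 1.82, 1.63 and 1.33 at those times. All 8 passed the exact permutation test, with adjusted p from 0.00332 to 0.00622. At 2 h neither passed, with 1.87 against Tnf (adjusted p = 0.092) and 1.29 against Il1b (adjusted p = 0.295).

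At 6 h the 7 genes tended to be high or low in the same mice, and at 2 h this held only in part. At 6 h sensitized replicate 3 was the lowest of its group for all 7 genes and above the highest naive mouse for none. The other 7 mice were above every naive mouse for 6 or 7 of the genes. In that mouse 19 of 20 measured genes listed as NF-kB-induced and 12 of 14 listed as gp130 and STAT3-induced were also the lowest of the group. The share of all genes lowest in that mouse was not counted, so these counts show nothing particular to the lists. Without that mouse the 6 h differences were larger, for example 4.95 for Il6, 2.66 for Il1rn and 2.77 for Osm. Sensitized replicate 7 at 6 h, which carried squamous epithelium transcripts at a mean of 10.84, was the highest for 5 of the 7 genes. Without the squamous arrays all 7 genes were still called at 6 h, with 3.93 for Il6, 2.10 for Il1rn, 2.17 for Osm and 1.10 for Lif. At 2 h sensitized replicates 1 and 8 were above every naive mouse for all 7 genes. Replicates 3, 4 and 5 were so for 5, 6 and 6 of them, and replicates 2, 6 and 7 for 2, 3 and 1. Replicate 3 was mixed, with Il6 at 9.35 but Il1a at 7.63, the lowest of its group.

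**Figure D4:**
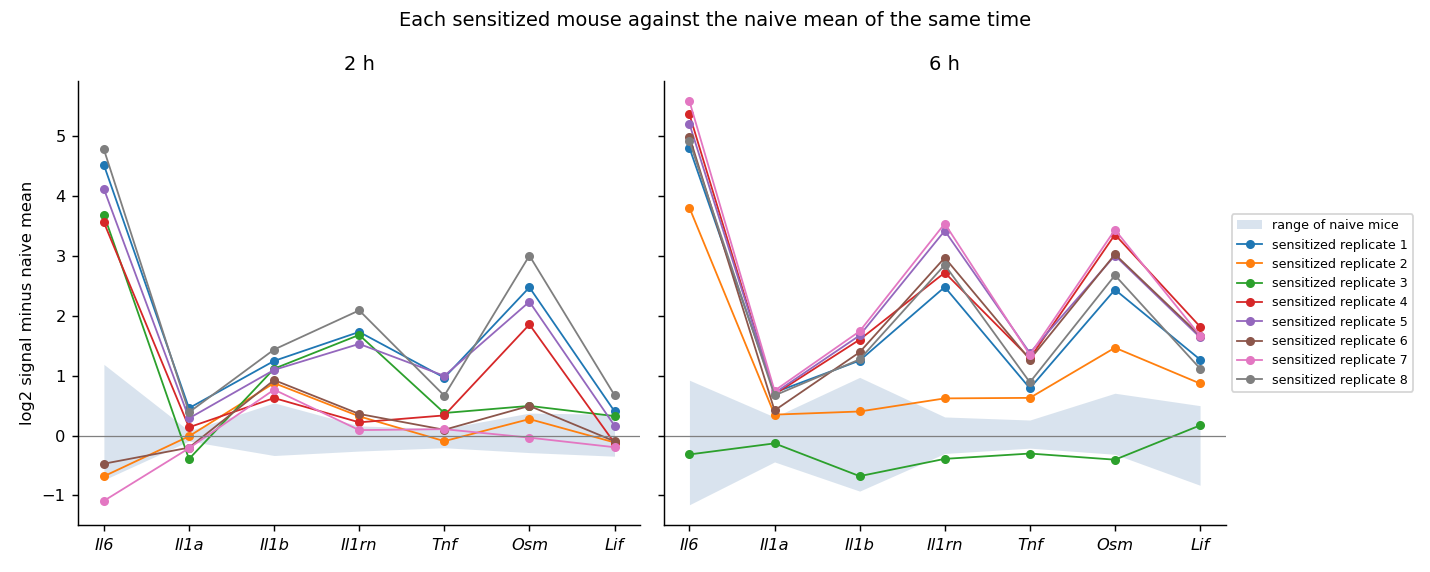
Log2 signal of each gene in each sensitized mouse minus the naive mean of the same time, at 2 h (left) and 6 h (right), with 1 coloured line per mouse and the range of the naive mice shaded. At 6 h replicate 3 is the lowest for all 7 genes and lies in or below the shaded range, and at 2 h replicates 2, 6 and 7 lie low for Il6.

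Other measures differed between the arms at these times too, and several did so already at 0 h. At 0 h Chil3 was higher by 1.69, Mrc1 by 0.43 and Hdc by 0.33. Cidec was then lower by -1.16 and Retn by -1.48, while Ms4a2 stood at 0.02 and was not called. At 6 h 24.6% of all genes were higher and 33.2% lower. At that time 4 of 7 measured monocyte and macrophage markers were higher. Their mean ranged from 10.88 to 12.00 in sensitized and from 10.59 to 11.45 in naive mice. Of 9 alveolar macrophage markers 4 were higher, among them Chil3 by 0.97 and Mrc1 by 0.75, and Siglecf was lower by -0.38. Of 7 measured mast cell markers 4 were higher, led by Hdc at 0.67 and Ms4a2 at 0.58, and Mcpt4 was lower by -0.61. Those lists' means ranged from 10.60 to 10.87 against 10.32 to 10.94, and from 8.34 to 8.73 against 8.09 to 8.83, so both overlapped between the arms. Of the 8 lung epithelium markers 6 were lower and 1 higher, and of 6 measured adipocyte markers 2 were lower, Cidec by -1.24 and Retn by -0.83. The 2 of 6 are near the share of all genes lower at 6 h. All 6 measured T cell markers were higher, with means from 9.15 to 10.06 against 8.63 to 9.38. Of 8 measured neutrophil markers 1 was higher, less than the share of all genes, and the list's mean differed by 0.07. At 0 h, when Lif was called, 5 of the 6 adipocyte markers were lower, led by Adipoq at -3.03. So were 3 of 9 skeletal muscle markers, led by Acta1 at -2.71, beside 12.3% of all genes. At 2 h, when Il1b separated the arms, 2 of the 8 neutrophil markers were higher (1.84% of all genes). The list's mean was up by 0.51, ranging from 9.29 to 10.07 in sensitized against 8.91 to 9.60 in naive mice. The log2 difference of 3′ and 5′ actin control probe sets, a measure of RNA degradation, was lower in sensitized mice at 6 h by -0.18 (adjusted p = 0.0224) and at 24 h by -0.13 (adjusted p = 0.0213), and higher at 168 h by 0.29 (adjusted p = 0.0319, exact permutation tests over 8 times). The part of these measures in the cytokine results was not tested.

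The receptors of these cytokines moved in both directions. At 6 h, 7 of 11 measured receptor genes were higher and 2 lower, with a median difference of 0.33 against -0.04 over all genes. The largest difference was in Il1r2, the decoy receptor that binds interleukin-1 without signalling, at 1.35 ± 0.28 (SE; adjusted p = 2.51e-05). The signalling receptor Il1r1 was higher by 0.94, the oncostatin M receptor Osmr by 0.67 and the Tnf receptor Tnfrsf1b by 0.57. Lifr, the receptor for Lif, was lower by -0.26, and Il6ra, the receptor for Il6, stood at -0.11 and was not called. At 96 h 2 receptors were higher and 4 lower, with 21.2% of all genes called higher and 20.8% lower.

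Among 8 measured relatives of the ligands, 4 were higher and 2 lower at 6 h, with a median difference of 0.23. Lta, the neighbour of Tnf, was higher by 1.38 ± 0.19 (SE; adjusted p = 6.56e-10), and the macrophage growth factor Csf1 by 1.05. Il18, an interleukin-1 relative that caspase-1 also cuts, was lower by -0.99 ± 0.17 (SE; adjusted p = 4.21e-07). Of 9 measured genes for release and processing, 7 were higher and 0 lower, with a median of 0.44. They included Casp4, the inflammatory caspase that senses bacterial lipopolysaccharide inside cells, by 1.38, and Casp1, which cuts interleukin-1 beta, by 0.67. Adam17, the protease that sheds Tnf, stood at 0.11 and was not called. Of 17 measured signalling genes 12 were higher and 1 lower, with a median of 0.20. The NF-kB subunits Relb and Rel were higher by 1.16 and 1.11, and Myd88, the adaptor of the interleukin-1 receptor, by 0.94.

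Genes listed as induced by NF-kB, or through gp130 and STAT3, were higher in larger shares. Both lists were chosen with earlier results of these data known, so their counts are a description and no independent test. The list names do not mean that these routes alone induce the genes. What part the cytokines had in these genes was not tested. At 6 h all 14 measured genes of the gp130 and STAT3 list were called higher, with a median of 1.11. Timp1, an inhibitor of matrix proteases, had 3.14 ± 0.33 (SE; adjusted p = 9.47e-14), the acute-phase gene Saa3 had 2.15 and the feedback inhibitor Socs3 had 1.38. Of 20 measured NF-kB-induced genes 18 were higher and 0 lower, with a median of 0.80, led by the neutrophil-attracting chemokines Cxcl1 at 2.62 and Cxcl2 at 2.32. At 0 h 6 of the 14 and 9 of the 20 were already higher. At 24 h 8 of the 14 and 15 of the 20 were higher, and at 96 h 3 and 9, with 1 gene of each list lower at both times. The 3 of 14 at 96 h are near the share of all genes called higher then. At 168 h 0 of the 14 were called by limma, and of the 20 only Ier3 was, lower by -0.28. Background shares are those given above for the same comparisons.

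**Figure D5:**
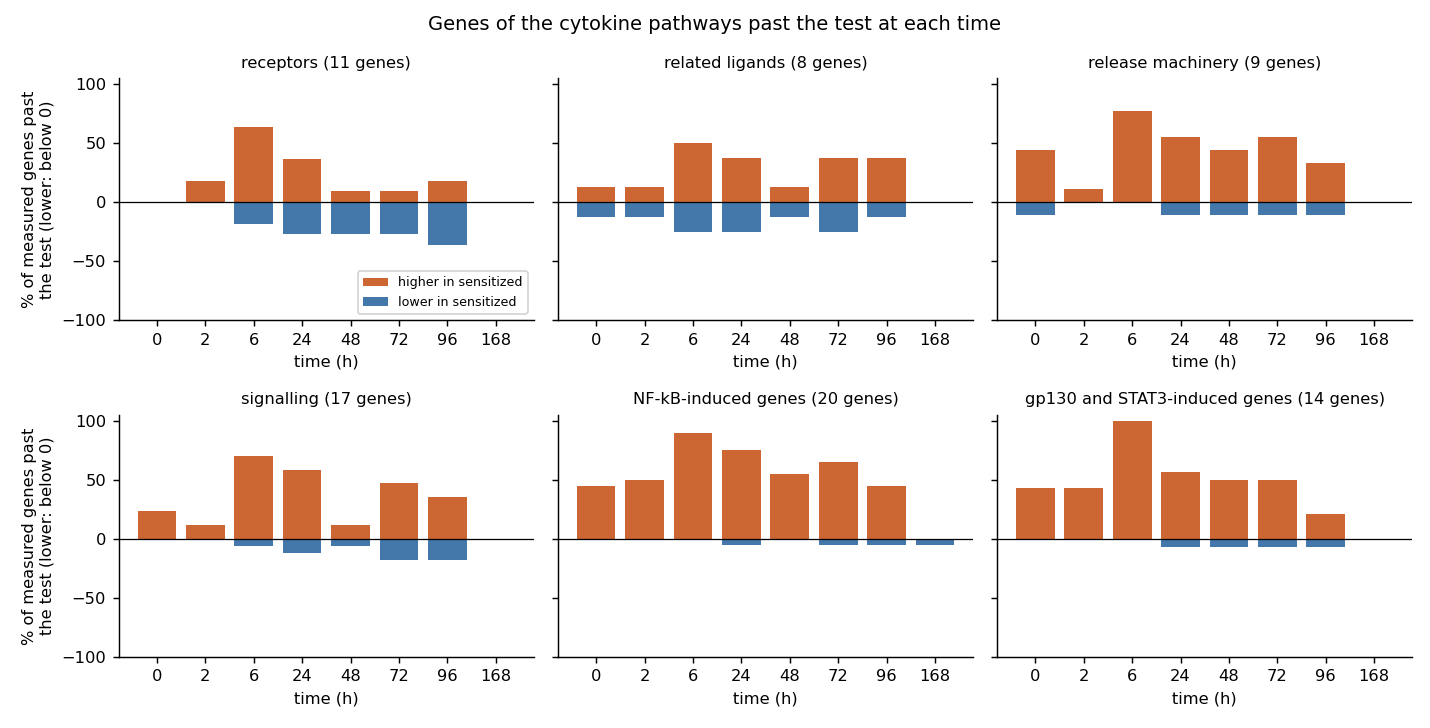
Percent of the measured genes of each pathway list called higher (bars above 0) or lower (bars below 0) in sensitized lung at each time in hours, by limma. At 6 h 14 of 14 genes of the gp130 and STAT3-induced list and 18 of 20 of the NF-kB-induced list are called higher. At 168 h the only bar is that of Ier3, called lower.

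The genes with the most similar pattern over the 16 group means were described by Pearson's r. The groups share no mice, but the 6 h peak dominates all these patterns. For Il6 they were Tnfaip6 (r = 0.972), which encodes a hyaluronan-binding protein, Has2 (r = 0.968), which makes hyaluronan, and the endothelial adhesion gene Selp (r = 0.958). For Il1rn they were the NF-kB gene Rel (r = 0.980), the adaptor gene Lcp2 (r = 0.972) and Gpr84 (r = 0.972). For Osm they were Irf1 (r = 0.973), Il4 (r = 0.969) and E230013L22Rik (r = 0.966). For Il1b they were 4833407H14Rik (r = 0.883), Socs3 (r = 0.872) and Cxcr2 (r = 0.860), and for Il1a Nle1 (r = 0.900), Naa25 (r = 0.896) and the Tnf receptor gene Tnfrsf1a (r = 0.885). For Tnf they were Rab20 (r = 0.936), Nfkbib (r = 0.932) and Il4 (r = 0.932), and for Lif the proteasome gene Psmd3 (r = 0.938), Rfx5 (r = 0.927) and Relb (r = 0.917). Among the 7 cytokine genes themselves the closest pair was Osm and Il6 (r = 0.95) and the least alike was Lif and Il1a (r = 0.46).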

How the data were processed

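Total RNA of 123 whole lungs, with RNA integrity numbers above 6 per the labels' protocols, was labelled by 3′ in vitro transcription and hybridised to Affymetrix mouse arrays, 1 array per animal. The authors deposited log2 values, normalized by RMA per the submitters' processing notes; RMA equalises array distributions and gives no detection calls or read depth, so the number of arrays limits the precision. Versions and settings of that step are not given in the labels. Of 25697 probe sets, 10 were controls, 22478 had 1 symbol in the platform annotation, 259 several and 2950 none. The probe set with the highest mean stood for each of 13053 genes. limma 3.58.1 in R 4.3.3 (lmFit, eBayes) was fitted to 16 groups of all 123 arrays, with 107 residual degrees of freedom, and p-values were adjusted by Benjamini-Hochberg within each contrast. Pairs of genes and RNA quality were compared by two-sided exact permutation tests in scipy 1.17.1. The fit was tested on simulated data. No arrays held identical values.

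The cytokine genes and the pathway and marker lists were chosen with earlier results of these data known. Named were every cytokine gene, up to 4 genes per pathway list with the largest called difference at the list's busiest time, other list genes beside their counts, and the 3 genes most like each cytokine gene in pattern. Alternatives were the spread from the compared groups alone, array weights, a trended robust prior, genes with a mean of at least 7, other probe sets or their mean, each array left out in turn, and the arrays with squamous epithelium transcripts left out. Leaving out 10 arrays with squamous or skeletal muscle transcripts (mean of 8 or more) was added after seeing the data.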

Additional observations from a re-analysis of the deposited data

Results flagged for a closer look

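In 112 groups of mice the highest or lowest value of each gene was set against its nearest neighbour by Dixon's criterion, which chance meets in about 1 in 20 groups. It was met in 6, about as many as chance alone would give. At 6 h sensitized replicate 3 stood far below the rest of its group for Il6 (5.29, the next value being 9.41), Il1a (7.81, next 8.29) and Tnf (7.0, next 7.93). Among naive mice, Tnf of replicate 3 at 72 h was high (8.36, next 7.59), as was Lif of replicate 4 at 168 h (9.41, next 8.10). Lif of sensitized replicate 5 at 168 h was also high (9.21, next 8.33).

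The difference between sensitized and naive mice itself varied over the 8 times for all 7 genes by limma's moderated F test. F was 8.02 for Il6 (adjusted p = 1.12e-06), 6.11 for Il1a (adjusted p = 3.38e-05), 9.82 for Il1b (adjusted p = 5.76e-08) and 7.94 for Il1rn (adjusted p = 1.28e-06). It was 5.06 for Tnf (adjusted p = 0.000242), 8.63 for Osm (adjusted p = 4.01e-07) and 4.59 for Lif (adjusted p = 0.000592). The test was called for 62.5% of all genes.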

How the results depend on the processing

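All 7 genes were called higher at 6 h under every alternative run except the filter on a mean of at least 7, which left out Il6 and called the other 6, and no called value changed direction. The number called higher at 0 h went from 1 to 2 with array weights, without the squamous arrays and without the squamous or muscle arrays. At 2 h it went from 5 to 1 with only the groups compared. At 48 h it went from 1 to 2 with array weights, with only the groups compared and without the squamous or muscle arrays, and to 0 among genes with a mean of at least 7. At 72 h it went from 2 to 4, and the number lower at 96 h from 1 to 2, each with array weights, with only the groups compared and without the squamous or muscle arrays. With only the groups compared 1 gene (Tnf) was higher at 96 h, and with array weights 1 (Il1b) was lower at 168 h. In naive mice 3 genes changed over time with array weights and 2 with only the groups compared. Leaving out single arrays gave 1 to 2 higher at 0 h, 2 to 5 at 2 h, 7 to 7 at 6 h, 2 to 4 at 24 h, 1 to 2 at 48 h, 1 to 3 at 72 h, 0 to 0 at 96 h and 168 h, and 1 to 2 lower at 96 h. The lowest count at 2 h was without sensitized replicate 8. Where no cause is named above, the cause was not tested. Of 400 differences of single genes under alternatives other than left-out arrays, 369 kept their call, 25 gained one and 6 lost one. The interaction has no fit with only the groups compared. Signal low on the array's range limits Il6 in naive mice. No paired analysis was possible because the replicate numbers follow accession order and every group is of different animals.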

Other observations

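The naive mice were not uniform in Il6. At 168 h naive replicate 8 had 9.83 and replicate 4 had 8.28, while the group's median was 6.06. Replicate 4 also had the highest Lif (9.41) and Il1rn (10.73) of its group, but the lowest Il1a (7.52) and Il1b (11.12). At 0 h naive replicate 3, an array with squamous epithelium transcripts, had the highest Il6 (8.25), Osm (9.08), Il1rn (9.77), Il1b (11.69) and Lif (8.22) of its group.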
